A study of Neurospora crassa with 12 samples.

Results

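The DNA damage checkpoint kinase genes of *Neurospora crassa* were taken as 5 genes, chosen by their IDs from the 9730 IDs in the count tables: the sensors *mus-9* (NCU11188) and *mus-21* (NCU00274), and the effectors *prd-4* (NCU02814), *mus-59* (NCU02751) and *mus-58* (NCU08346, named *un-1* in the RefSeq gene table). All 5 had counts in every library. All 5 also passed the filter on low counts that left 7746 genes for testing, but *mus-58* passed it only through wild-type libraries.

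A DNA damage checkpoint delays the cell cycle while DNA is repaired or replication is completed. Broken DNA ends and single-stranded DNA activate large sensor kinases of the ATM and ATR types, which phosphorylate the effector kinases CHK1 and CHK2, and the effectors carry the signal to cell cycle, replication and repair proteins. In *Neurospora*, MUS-9 is the ATR-type sensor, MUS-21 the ATM-type sensor, MUS-58 the CHK1-type effector and PRD-4 the CHK2-type effector, while MUS-59 is CHK2-like. PRD-4 is also known for linking DNA damage to the circadian clock, because it phosphorylates the clock protein FRQ. The kinases are switched on by phosphorylation, which counts of mRNA do not measure.

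RNA-Seq counts came from 4 groups with 3 biological replicates (I, II and III) each, 12 libraries in all. The groups were the strain Δ*mus-52* (*mat a*, *mus-52*::*hyg*) in high-Pi (10 mM) and in low-Pi (10 µM), and the wild type 74A (*mat A*) in the same media. All groups were conidia grown for 5 h at 30 °C in shaken medium with sucrose, when they germinate. MUS-52 is the Ku80 subunit of the complex that holds broken DNA ends for non-homologous end joining. Δ*mus-52* is a single strain of the opposite mating type to the wild type, so the disruption, the mating type and the strain background cannot be told apart.

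Between 17574263 and 56152963 reads were counted per library. The disrupted gene was itself counted in all 12 libraries, with 21.04 to 27.1 CPM (counts scaled to library size, on edgeR's TMM scale) in the libraries of Δ*mus-52* and 19.5 to 75.9 CPM in the wild-type libraries. Those libraries are therefore called the libraries labelled *mus-52*, or *mus-52* libraries, and what is higher or lower between strains depends on that label being right. The paper states that the knockout in the mutant strain was checked by qRT-PCR. The wild-type replicates labelled I were unlike the other two in each medium, with correlations of 0.931 to 0.951 across the 7746 genes (log2 CPM), against 0.988 to 0.993 for every other pair of replicates. Many of the strain differences that moved with wild-type replicate I are given with and without it.

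Per kb of gene length, *prd-4* was the most abundant of the 5 mRNAs in every library and *mus-58* the least. In high-Pi, *prd-4* had 16.3 ± 1.20 CPM per kb in the *mus-52* libraries and 27.3 ± 2.43 in the wild type (SD, n = 3). In low-Pi it had 25.3 ± 2.58 CPM per kb in the *mus-52* libraries and 22.2 ± 4.60 in the wild type (SD, n = 3). These levels lay at the 59.1 to 70.2 percentiles of the 7745 genes with a length. *mus-9*, *mus-21* and *mus-59* lay lower, at 1.79 to 4.93 CPM per kb and the 21.9 to 33.8 percentiles. In the *mus-52* libraries *mus-9* came second in both media, above every library's value of the next gene, and *mus-21* and *mus-59* overlapped. In the wild type the order after *prd-4* was *mus-59*, *mus-9*, *mus-21* in both media, but each of these overlapped its neighbour over the replicates. *mus-58* had 0.0862 to 0.257 CPM per kb, at or below the 4.11 percentile. The gene span of the NC12 assembly, introns included, was used as the length, and the order is a description with no test.

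**Figure D1:**
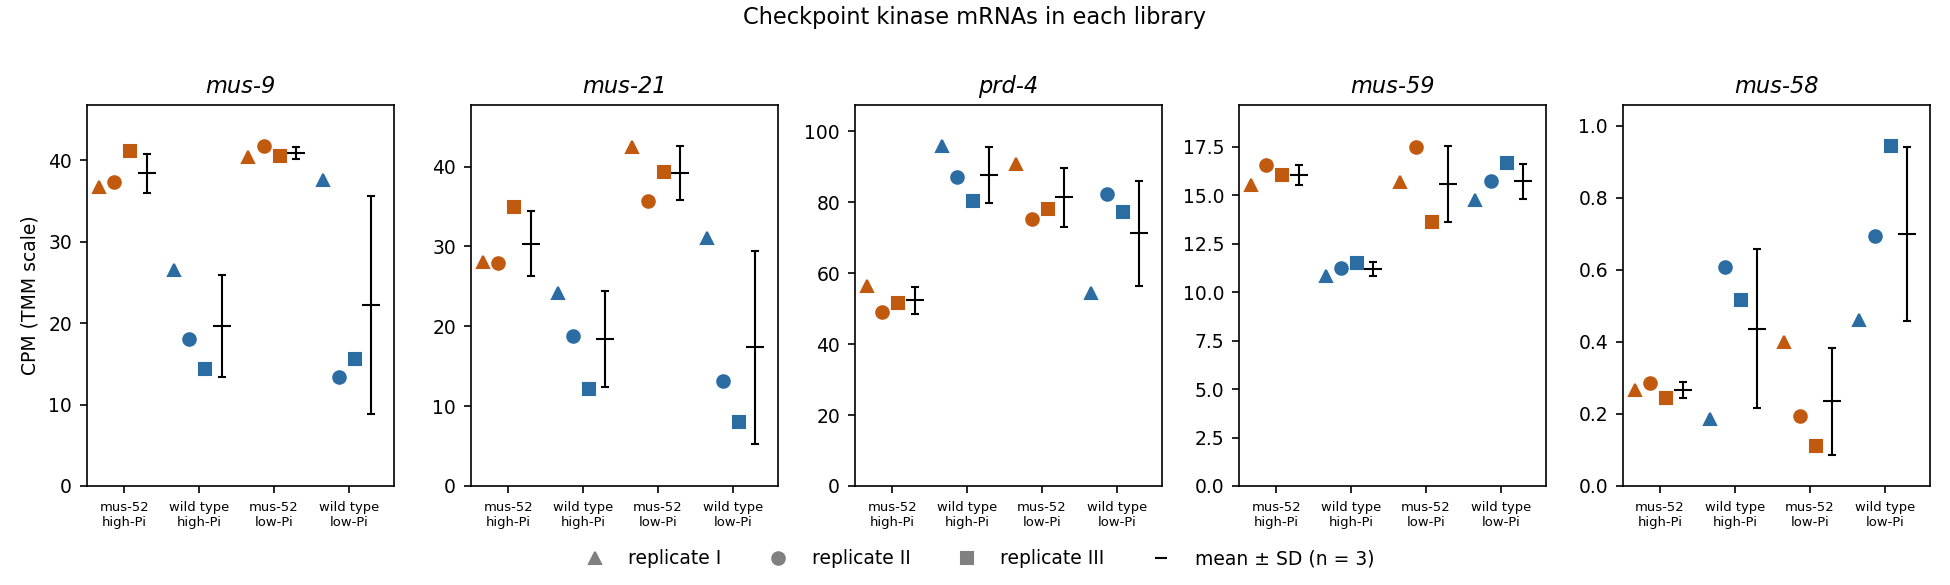
Level of each checkpoint kinase mRNA in CPM (TMM scale, y axis from 0, a scale of its own in each panel) in the 3 libraries of each group, with the mean ± SD (n = 3) in black. *prd-4* was between 48.9 and 56.5 CPM in the *mus-52* libraries in high-Pi, below the 80.2 to 95.8 CPM of the wild type, and *mus-9* and *mus-21* were higher in each *mus-52* library than in each wild-type library of the same medium.

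Both sensor genes were higher in each library labelled *mus-52* than in each wild-type library of the same medium, by 1.65- to 2.25-fold. Of the 4 differences, that of *mus-9* in high-Pi and that of *mus-21* in low-Pi passed the adjusted p threshold of 0.05. *mus-9*, the ATR-type sensor, spans 8293 bp on chromosome I (7782698 to 7790990 of the NC12 assembly). In high-Pi, replicates I, II and III labelled *mus-52* had 36.7, 37.3 and 41.1 CPM, against 26.5, 18.04 and 14.3 CPM in the wild type. In low-Pi it had 40.4, 41.8 and 40.6 CPM in the *mus-52* libraries, against 37.6, 13.4 and 15.7 CPM in the wild type. The *mus-52* libraries were close to each other and above the whole wild-type range in both media, and wild-type replicate I was the highest of the wild type. The log2 fold change, *mus-52* over wild type, was 0.96 in high-Pi (standard error, SE, 0.350; adjusted p = 0.0401 in edgeR's quasi-likelihood test, by the Benjamini-Hochberg method over all genes tested) and 0.88 in low-Pi (SE 0.350; adjusted p = 0.0653 in that edgeR test).

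*mus-21*, the ATM-type sensor, spans 9701 bp on chromosome III (3258938 to 3268638). In high-Pi it had 28.1, 27.9 and 35.0 CPM in the *mus-52* libraries, against 24.2, 18.8 and 12.2 CPM in the wild type. In low-Pi it had 42.5, 35.7 and 39.4 CPM in the *mus-52* libraries, against 31.0, 13.2 and 8.004 CPM in the wild type. The groups did not overlap in either medium, and wild-type replicate I was again nearest to the *mus-52* libraries. The log2 fold change was 0.72 in high-Pi (SE 0.409, edgeR adjusted p = 0.162) and 1.17 in low-Pi (SE 0.412, edgeR adjusted p = 0.0434). The annotation overlaps that of NCU00275 by 33 bp, 0.34% of the gene, and reads there cannot be assigned to either gene, because the use of strand in counting is not given in the sources used here.

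The size and the calls of both sensor differences moved with wild-type replicate I. In log2 CPM that replicate exceeded the mean of replicates II and III by 0.72 (*mus-9*) and 0.67 (*mus-21*) in high-Pi and by 1.37 and 1.59 in low-Pi, while the *mus-52* mean exceeded the same replicates by 1.25 and 0.99 in high-Pi and by 1.5 and 1.92 in low-Pi. Without wild-type low-Pi replicate I, the low-Pi log2 fold change was 1.42 for *mus-9* (adjusted p = 0.000314, edgeR) and 1.82 for *mus-21* (adjusted p = 0.000361, edgeR). Without wild-type high-Pi replicate I, that of *mus-9* in high-Pi was 1.25 (adjusted p = 0.0174, edgeR). Leaving out any of the other 5 libraries of the comparison ended the call of *mus-21* in low-Pi (log2 fold change 0.82 to 1.17, adjusted p = 0.0871 to 0.144, edgeR) and that of *mus-9* in high-Pi (0.80 to 1.00, adjusted p = 0.0663 to 0.114, edgeR). With both wild-type libraries of replicate I left out, all 4 sensor differences passed (log2 fold changes 0.93 to 1.83), as did 70.7% of the genes tested in high-Pi and 72.0% in low-Pi.

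Among the effectors, *prd-4* fell and *mus-59* rose in the *mus-52* libraries in high-Pi, and *mus-58* did not pass in either medium in the edgeR fit of all 12 libraries, though it did in low-Pi in some other fits. *prd-4*, the CHK2-type effector, spans 3214 bp on chromosome I (9031103 to 9034316). In high-Pi it had 56.5, 48.9 and 51.6 CPM in the *mus-52* libraries, against 95.8, 87.1 and 80.2 CPM in the wild type. In low-Pi it had 90.8, 75.3 and 78.0 CPM in the *mus-52* libraries, against 54.4, 82.2 and 77.2 CPM in the wild type. The groups were wide apart in high-Pi and overlapped in low-Pi, where wild-type replicate I was the lowest of all 6 libraries. *prd-4* fell in the *mus-52* libraries in high-Pi, with a log2 fold change of −0.75 (0.597-fold, SE 0.176, edgeR adjusted p = 0.00665). This was the 1 difference of a checkpoint kinase that passed in each of the 6 fits that left out a library of the comparison (−0.80 to −0.67, adjusted p = 0.0111 to 0.0319, edgeR). The low-Pi value was 0.19 (95% interval −0.19 to 0.58, adjusted p = 0.395, edgeR), and it was −0.05 without wild-type low-Pi replicate I.

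*mus-59*, the CHK2-like effector, spans 4666 bp on chromosome I (3431993 to 3436658). In high-Pi it had 15.5, 16.6 and 16.1 CPM in the *mus-52* libraries, against 10.8, 11.2 and 11.5 CPM in the wild type. In low-Pi it had 15.7, 17.5 and 13.6 CPM in the *mus-52* libraries, against 14.8, 15.7 and 16.6 CPM in the wild type. The wild-type high-Pi libraries were thus the lowest of the 4 groups, and the groups overlapped in low-Pi. *mus-59* rose in the *mus-52* libraries in high-Pi, with a log2 fold change of 0.52 (1.43-fold, SE 0.152, edgeR adjusted p = 0.0162). It was 0.51 without *mus-52* high-Pi replicate II, where the call was lost (adjusted p = 0.0542, edgeR). The low-Pi value was −0.01 (95% interval −0.34 to 0.32, adjusted p = 0.962, edgeR). In the wild type this gene was among the least variable over replicates: its SD in log2 CPM was 0.0437 in high-Pi and 0.0849 in low-Pi, where the median gene had 0.371 and 0.412, and replicate I did not stand apart (−0.07 and −0.13 against replicates II and III).

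*mus-58*, the CHK1-type effector, had 126 counts in all 12 libraries together. It had 15, 7 and 9 counts in the *mus-52* libraries in high-Pi and 16, 5 and 2 in low-Pi, against 8, 10 and 10 counts in the wild type in high-Pi and 10, 13 and 21 in low-Pi. In CPM the groups did not overlap in low-Pi, with 0.401, 0.193 and 0.111 CPM in the *mus-52* libraries and 0.462, 0.695 and 0.944 CPM in the wild type, and they overlapped in high-Pi. The log2 fold change was −0.60 in high-Pi (adjusted p = 0.375, edgeR) and −1.44 in low-Pi (SE 0.536, edgeR adjusted p = 0.0526). The high-Pi value was −1.1 without both wild-type libraries of replicate I (adjusted p = 0.0781, edgeR). The low-Pi difference passed with DESeq2 (−1.56, adjusted p = 0.0376), with RLE factors (−1.53, adjusted p = 0.0442, edgeR), without wild-type low-Pi replicate I (−1.74, adjusted p = 0.0238, edgeR) and without *mus-52* low-Pi replicate I (−2.12, adjusted p = 0.0389, edgeR), and not in the 4 other fits that left out a library of the comparison (−1.45 to −1.16, adjusted p = 0.114 to 0.187, edgeR). It also passed without both wild-type libraries of replicate I (−1.7, adjusted p = 0.00646, edgeR) and without replicate number I in any group (−2.34, adjusted p = 0.00368, edgeR). It did not pass without the filter (−1.44, adjusted p = 0.0643, edgeR), with the replicate block (−1.37, adjusted p = 0.0851, edgeR) or without robust estimation (−1.44, adjusted p = 0.0503, edgeR). Exact 95% Poisson intervals, which cover counting error only, ran from 0.0135 to 0.401 CPM for the lowest library and from 0.585 to 1.44 CPM for the highest. The CPM floor of the filter was reached by 2 wild-type libraries in each medium and by no *mus-52* library, so a gene that passed in this way is one that was higher in the wild type. *mus-58* spans 2727 bp on chromosome I (5677011 to 5679737), overlaps NCU08347 by 2 bp and has 2 annotated transcripts. Genes with more than 1 annotated transcript had a median of 34 counts over the 12 libraries and 27.1% of the 898 had none, against a median of 7468 and 4.03% for genes with 1 transcript, and the part of this in the low counts of *mus-58* was not tested.

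The counts of called kinases are set here against all genes. In high-Pi, *mus-9* and *mus-59* rose and *prd-4* fell, 2 and 1 of 5, where 23.5% of the genes tested rose and 25.3% fell. In low-Pi, *mus-21* rose and no member fell in that edgeR fit, where 17.9% rose and 20.5% fell. DESeq2 also called *mus-9* higher (0.82, adjusted p = 0.0481) and *mus-58* lower (−1.56, adjusted p = 0.0376) in low-Pi. The libraries of the strains did not overlap for 4 of the 5 in high-Pi, where this held for 60.5% of genes, and for 3 of the 5 in low-Pi, where it held for 54.8%. In low-Pi 1 of the 3 was *mus-58*, which passed the filter only through wild-type libraries. The filter thus favoured a lower level of this gene in the *mus-52* libraries. A DEG also needs a log2 fold change of 1.5 or more, up or down. On that rule 19.0% of genes passed in high-Pi and 13.3% in low-Pi, while none of the 5 did in either medium in that edgeR fit. In low-Pi, *mus-58* passed both with DESeq2 (1159 of 9131 genes did) and with RLE factors in edgeR (1086 of 7746). Without both wild-type libraries of replicate I, *mus-21* and *mus-58* passed both in low-Pi, where 1846 of 7804 genes did (edgeR).

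**Figure D2:**
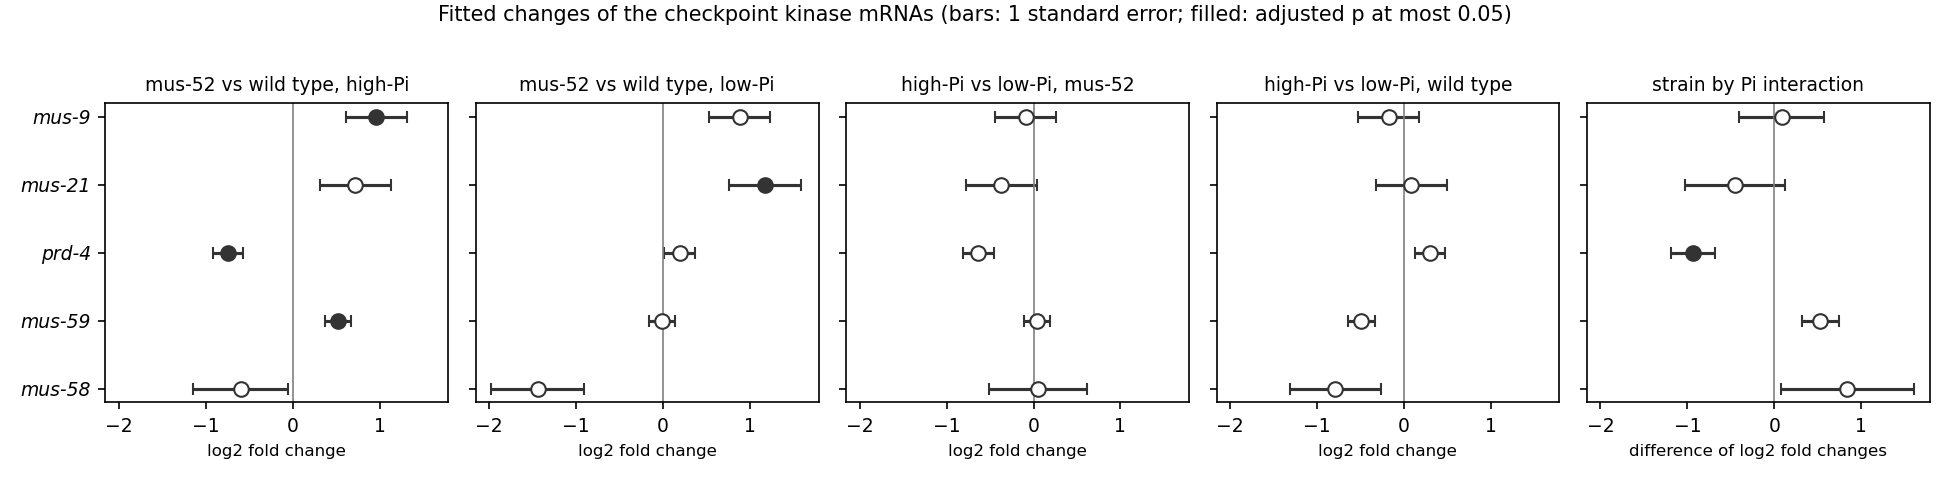
Log2 fold change (x axis) of each checkpoint kinase mRNA in the 5 comparisons, with bars of 1 standard error. Filled points passed an adjusted p of 0.05 in edgeR's quasi-likelihood test: *mus-9* (0.96), *prd-4* (−0.75) and *mus-59* (0.52) between the strains in high-Pi, *mus-21* (1.17) in low-Pi, and *prd-4* (−0.94) in the difference between the strains' responses to Pi.

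No change of the 5 mRNAs with Pi passed the adjusted p threshold in edgeR in either strain. In each strain 1 (*prd-4* in the *mus-52* libraries, *mus-59* in the wild type) was below 0.05 before adjustment and passed with DESeq2. Before adjustment, 1284 of the 7746 genes were below 0.05 in the *mus-52* libraries and 1030 in the wild type (edgeR). In the libraries labelled *mus-52*, *prd-4* was lower in high-Pi than in low-Pi without overlap, and so was *mus-21*, 2 of 5, where 46.5% of genes did not overlap and 4.71% passed the adjusted p threshold. The log2 fold change of *prd-4* was −0.64 (0.643-fold, SE 0.176, edgeR adjusted p = 0.0693), and that of *mus-21* was −0.37 (SE 0.405, edgeR adjusted p = 0.768). *prd-4* fell past the threshold with DESeq2 (−0.59, adjusted p = 0.0362), with only the 6 *mus-52* libraries in the edgeR fit (−0.63, adjusted p = 0.000831), and in the edgeR fit without both wild-type libraries of replicate I (−0.61, adjusted p = 0.000201). *mus-21* passed only with those 6 libraries (−0.37, adjusted p = 0.0296, edgeR). The median spread of a gene in the *mus-52* libraries was an SD of 0.146 in log2 CPM in high-Pi and 0.139 in low-Pi, against 0.371 and 0.412 in the wild type, and the 12-library fit shares 1 estimate of the spread between the strains. *mus-9*, *mus-59* and *mus-58* had log2 fold changes of −0.09, 0.04 and 0.05.

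In the wild type, *mus-59* had lower levels in each high-Pi library than in each low-Pi library, 1 of 5, where 12.7% of genes did not overlap. Its log2 fold change was −0.49 (0.712-fold, SE 0.153, edgeR adjusted p = 0.205). Few genes passed in this comparison, 37 or 0.478% of those tested, and 18 with the replicate number as a block, with none of the 5 among them in either fit. *mus-59* passed with DESeq2 (−0.48, adjusted p = 0.0466) and in the edgeR fit without both wild-type libraries of replicate I (−0.52, adjusted p = 0.0320). *prd-4* had a log2 fold change of 0.30 (95% interval −0.08 to 0.69), with more CPM in high-Pi than in the low-Pi library of the same number in 3 of 3 pairs (adjusted p = 0.599 with the replicate number as a block shared by the strains, edgeR). That of *prd-4* was 0.06 without both wild-type libraries of replicate I (adjusted p = 0.79, edgeR). Low-Pi replicate I had 54.4 CPM of *prd-4*, against 82.2 and 77.2 CPM in replicates II and III. *mus-58* had a log2 fold change of −0.79 (−1.94 to 0.37), while *mus-9* had −0.17 and *mus-21* 0.08, whose signs changed when single wild-type libraries were left out. With the further requirement on the fold change, 2.61% of genes passed in the *mus-52* libraries and 0.219% in the wild type, and none of the 5 did.

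The response of *prd-4* to Pi differed between the strains. Its log2 fold change, high-Pi over low-Pi, was −0.64 in the *mus-52* libraries and 0.30 in the wild type, and the difference of these responses was −0.94 (SE 0.249, edgeR adjusted p = 0.0495 for the interaction of strain and Pi). Among all genes 5.94% passed this test and 4.26% also had a difference of at least 1.5, so that 1 of the 5 passed the adjusted p threshold and none passed both. The call lay at the edge of the threshold. It held without wild-type low-Pi replicate I (−0.69, adjusted p = 0.0361, edgeR) and replicate II (−1.05, adjusted p = 0.0492, edgeR), and was lost without any of the other 10 libraries (−0.996 to −0.81, adjusted p = 0.0705 to 0.192, edgeR). It was also lost with the replicate number as a block shared by the strains (−0.93, adjusted p = 0.0917, edgeR), and with RLE factors, no filter, at least 10 counts throughout or no robust estimation (−0.96 to −0.90, adjusted p = 0.0505 to 0.0715, edgeR). It held with DESeq2 (−0.90, adjusted p = 0.0177), without both wild-type libraries of replicate I, and without replicate number I in any group. *mus-59* showed a difference of the opposite sign, 0.53 (SE 0.215, adjusted p = 0.198, edgeR), and passed in the fit without both wild-type libraries of replicate I (0.58, adjusted p = 0.0419, edgeR), as *mus-21* did (−0.89, adjusted p = 0.0390, edgeR), where 25.5% of all genes passed. *mus-9* had a difference of 0.08 (SE 0.491) and *mus-58* one of 0.84 (SE 0.768).

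The ratio of *prd-4* to *mus-59* counts was also taken within single libraries, where no scaling between libraries enters. It uses the counts already compared above, and a ratio cannot tell which of its genes moved. Each *mus-59* count was matched by 3.64, 2.95 and 3.21 *prd-4* counts in the *mus-52* libraries in high-Pi, against 8.85, 7.75 and 6.97 in the wild type. In low-Pi the ratio was 5.80, 4.30 and 5.73 in the *mus-52* libraries, against 3.68, 5.23 and 4.64 in the wild type. The strains were far apart in high-Pi and overlapped in low-Pi, and the high-Pi libraries had the lowest ratios of all in one strain and the highest in the other. These ratios are given as a description and were not tested. The ratio of *mus-9* to *mus-21* counts stayed between 0.950 and 1.34 in 11 libraries, and was 1.96 in wild-type low-Pi replicate III.

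The sensors took a larger share of the 5 kinase mRNAs in the *mus-52* libraries in high-Pi. The share is formed from the levels already compared above, and cannot tell which of the genes moved. Of the summed CPM per kb, *mus-9* and *mus-21* held 25.8%, 28.1% and 30.4% in the *mus-52* libraries in high-Pi, against 15.0%, 12.2% and 9.75% in the wild type. In low-Pi they held 22.6%, 24.2% and 24.7% in the *mus-52* libraries, against 27.6%, 9.22% and 8.85% in the wild type. The strains did not overlap in high-Pi, while in low-Pi wild-type replicate I lay above every *mus-52* library and replicates II and III lay far below. *prd-4* held most of the rest, with 57.0% to 68.9% in the *mus-52* libraries and 60.5% to 81.6% in the wild type.

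**Figure D3:**
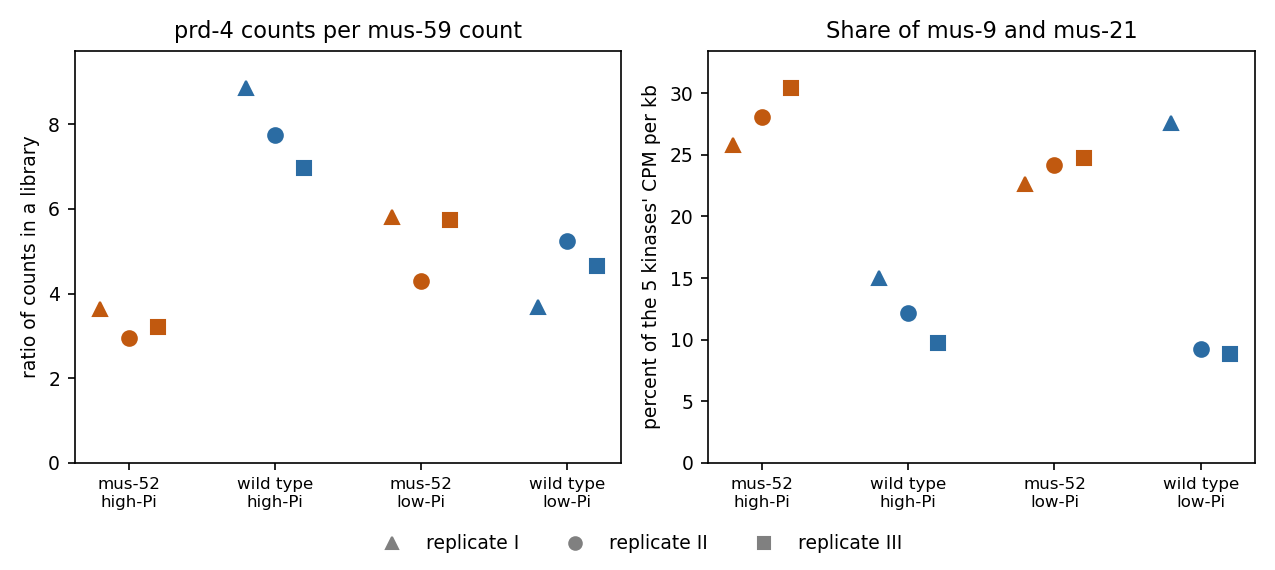
Left, *prd-4* counts per *mus-59* count in each library, and right, the share of the 2 sensors *mus-9* and *mus-21* in the summed CPM per kb of the 5 kinases, in percent (both y axes from 0; marker shape gives the replicate). In high-Pi the ratio was 2.95 to 3.64 in the *mus-52* libraries and 6.97 to 8.85 in the wild type, and the sensor share of wild-type low-Pi replicate I (27.6%) lay apart from those of replicates II and III.

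The listed partners and targets of the sensors that were tested, and *mus-23*, were higher in the libraries labelled *mus-52*. They were picked with earlier results of these data known, and the other *mus* genes went both ways, as given below. From a list of checkpoint partners and targets found by symbol, *uvs-3*, *uvs-6* and *un-24* were tested, and all 3 rose in both media, where 23.5% of all genes rose in high-Pi and 17.9% in low-Pi (median log2 fold change 1.11 in high-Pi and 1.23 in low-Pi, against −0.02 and 0.07 over all genes). Without both wild-type libraries of replicate I all 3 rose as well, with medians of 1.42 and 1.60, where 34.8% and 36.7% of all genes rose. *rnr-2*, also listed, had no symbol in the reference table. *uvs-3* encodes an ATRIP-like partner of the ATR-type kinase. It had 23.6, 20.8 and 22.3 CPM in the *mus-52* libraries in high-Pi, against 14.4, 14.5 and 15.4 CPM in the wild type, a log2 fold change of 0.59 (adjusted p = 0.0140, edgeR), and it was 0.54 in low-Pi (adjusted p = 0.0282, edgeR). *uvs-6* encodes RAD50, which with MRE11 brings the ATM-type kinase to DNA ends. Its log2 fold change was 1.11 in high-Pi (adjusted p = 0.0192, edgeR) and 1.23 in low-Pi (adjusted p = 0.0179, edgeR), and these were 1.42 and 1.60 without both wild-type libraries of replicate I. *mus-23*, the MRE11 homologue, had 31.6, 32.5 and 34.0 CPM in the *mus-52* libraries in high-Pi, against 17.99, 10.8 and 7.12 CPM in the wild type. It rose by a log2 fold change of 1.44 in high-Pi (adjusted p = 0.00759, edgeR) and 1.09 in low-Pi (adjusted p = 0.0310, edgeR). These were 1.84 in high-Pi and 1.47 in low-Pi without both wild-type libraries of replicate I. *un-24* encodes the large subunit of ribonucleotide reductase, which makes deoxynucleotides for replication and repair. It had 239, 244 and 254 CPM in the *mus-52* libraries in high-Pi, against 99.3, 85.2 and 65.5 CPM in the wild type, and a log2 fold change of 1.56 (adjusted p = 0.00783, edgeR), with 1.27 in low-Pi (adjusted p = 0.0248, edgeR). In low-Pi, wild-type replicate I had 190 CPM of *un-24* where replicates II and III had 60.7 and 60.6 CPM, so that replicate I was the highest, as for the sensors, and without both wild-type libraries of replicate I the low-Pi log2 fold change was 1.97 (adjusted p = 2.74e-10, edgeR).

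Among the other 20 mutagen-sensitive (*mus*) genes of the study's list, *mus-52* itself included, 7 rose and 4 fell between the strains in high-Pi, and 10 rose and 4 fell in low-Pi. Over all genes 23.5% rose and 25.3% fell in high-Pi, and 17.9% rose and 20.5% fell in low-Pi. Their median log2 fold change was 0.11 in high-Pi and 0.65 in low-Pi, against −0.02 and 0.07 over all genes. Without both wild-type libraries of replicate I, 10 rose and 5 fell in high-Pi and 12 rose and 4 fell in low-Pi, where 34.8% of all genes rose and 35.9% fell in high-Pi, and 36.7% rose and 35.3% fell in low-Pi. Beside *mus-23*, the smallest p-values in high-Pi were those of *mus-41* (log2 fold change 1.38, adjusted p = 0.000913, edgeR), *mus-44* (−1.09, adjusted p = 0.00132), *mus-50* (1.67, adjusted p = 0.00172) and *mus-25*, the RAD54 homologue of recombination (0.85, adjusted p = 0.00364). In low-Pi they were those of *mus-25* (1.14, adjusted p = 0.00174, edgeR), *mus-40* (1.51, adjusted p = 0.00453), *mus-50* (1.39, adjusted p = 0.00520) and *mus-53*, which encodes DNA ligase IV of end joining (2.37, adjusted p = 0.00609). No change of the 20 with Pi passed in either strain in the edgeR fit of all 12 libraries. In the *mus-52* libraries 2 of them were below 0.05 before adjustment and 1 passed with DESeq2, and in the wild type 3 were below 0.05 before adjustment and 0 passed with DESeq2. Of all 7746 genes, 1284 in the *mus-52* libraries and 1030 in the wild type were below 0.05 before adjustment (edgeR). In the edgeR fit without both wild-type libraries of replicate I, 4 fell in high-Pi in the *mus-52* libraries (*mus-11*, *mus-25*, *mus-40* and *mus-53*), and 1 rose (*mus-52* itself) and 1 fell (*mus-41*) in the wild type, where 33.2% of all genes passed in the *mus-52* libraries and 16.1% in the wild type. In the fit of all 12 libraries, *mus-53* was the 1 gene of the 20 with a different response to Pi in the strains (difference −2.82, adjusted p = 0.0358, edgeR), where 5.94% of all genes passed. Its wild-type libraries in high-Pi had 39.5, 13 and 8.20 CPM, replicate I being far the highest. Without both wild-type libraries of replicate I the difference was −1.96 (adjusted p = 0.00919, edgeR). *mus-53* was 1 of 6 of the 20 that then passed, where 25.5% of all genes passed.

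Of 5 clock genes that work with PRD-4, 3 rose and 2 fell between the strains in high-Pi, and 2 rose and 2 fell in low-Pi. These counts stand beside 23.5% of all genes that rose and 25.3% that fell in high-Pi, and 17.9% and 20.5% in low-Pi. *frh*, which encodes the helicase that binds FRQ, rose by a log2 fold change of 2.79 in high-Pi (adjusted p = 0.00346, edgeR) and 1.73 in low-Pi (adjusted p = 0.0281, edgeR). It had 171, 200 and 215 CPM in the *mus-52* libraries in high-Pi, against 35.0, 27.2 and 22.5 CPM in the wild type. In low-Pi it had 188, 185 and 172 CPM in the *mus-52* libraries, against 119.5, 21.4 and 23.7 CPM in the wild type. Wild-type replicate I lay far above the other wild-type libraries in low-Pi, and without both wild-type libraries of replicate I the log2 fold change was 2.94 in each medium (adjusted p = 4.77e-12 in high-Pi and 4.04e-12 in low-Pi, edgeR). *wc-2*, for a subunit of the White Collar complex that activates *frq*, rose by 0.58 in high-Pi (adjusted p = 0.0341, edgeR) and 0.72 in low-Pi (adjusted p = 0.0191, edgeR). *frq*, whose product PRD-4 phosphorylates, rose in high-Pi (0.96, adjusted p = 0.0217, edgeR) and had 0.53 in low-Pi (adjusted p = 0.171, edgeR), where it passed without both wild-type libraries of replicate I (0.955, adjusted p = 8.73e-05, edgeR). *wc-1*, for the other subunit, and *ck-1a*, for a casein kinase that also phosphorylates FRQ, fell in both media. *wc-1* had a log2 fold change of −1.69 in high-Pi (adjusted p = 0.00732, edgeR) and −2.43 in low-Pi (adjusted p = 0.00261, edgeR). *ck-1a* had 6, 4 and 3 counts in the *mus-52* libraries in high-Pi and 3, 2 and 3 in low-Pi, against 9, 16 and 21 counts in the wild type in high-Pi and 11, 11 and 27 in low-Pi. No *mus-52* library reached the CPM floor of the filter for *ck-1a*, so it was tested only through wild-type libraries and had to be higher there. *ck-1a*, *wc-1* and *frq* have 3, 4 and 3 annotated transcripts, so their counts carry the same doubt as those of *mus-58*. No change of the 5 clock genes with Pi, in either strain or between the strains, was below 0.05 before adjustment or passed with edgeR or DESeq2, and none passed in edgeR without both wild-type libraries of replicate I.

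**Figure D4:**
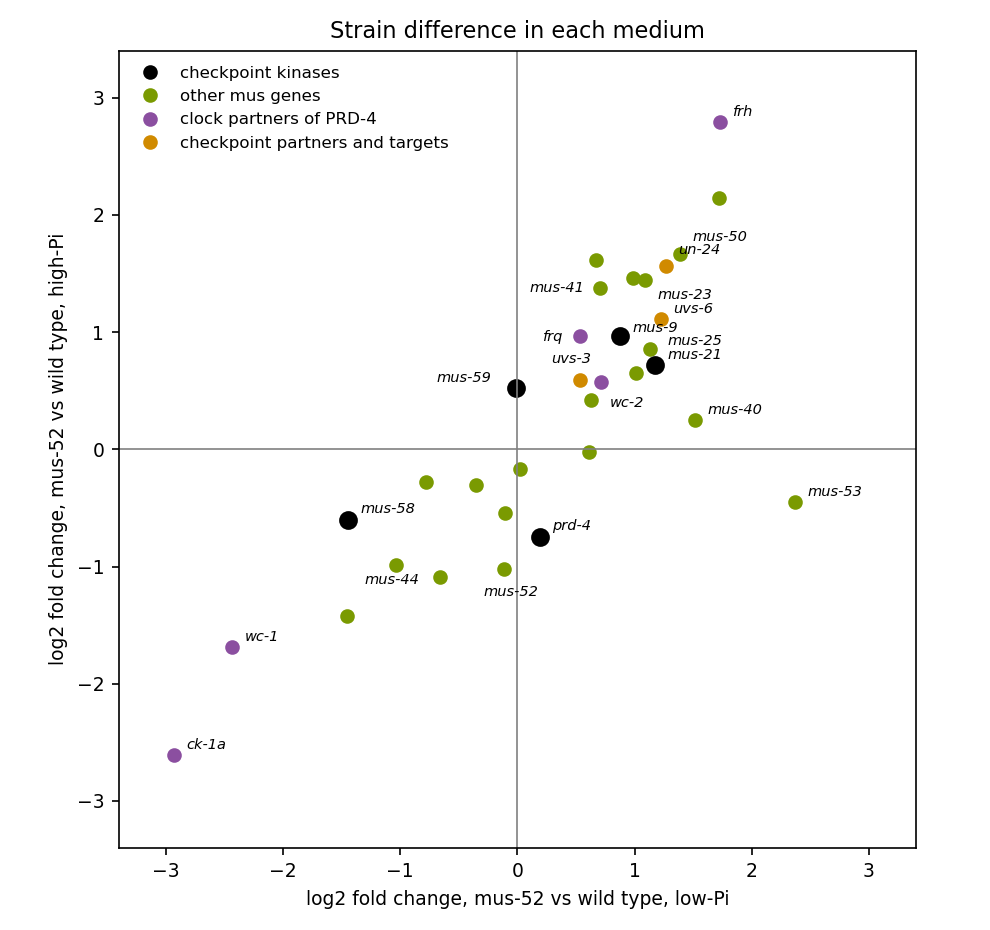
Log2 fold change between the strains (*mus-52* over wild type) in low-Pi (x axis) and high-Pi (y axis) for the 5 checkpoint kinases (black) and the listed genes, with named genes marked. *mus-9* (0.88 and 0.96) and *mus-21* (1.17 and 0.72) lay in the upper right beside *uvs-6*, *mus-23* and *un-24*, while *prd-4* (0.19 and −0.75) and *mus-59* (−0.01 and 0.52) lay near the vertical line on opposite sides of 0.

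The genes with the pattern most like each kinase over the 12 libraries were found by the root mean square difference of log2 CPM, each gene centred on its own mean. The nearest to *mus-9* was *rpa-1* (NCU03606), at 0.102, with log2 fold changes of 1.05 in high-Pi and 0.96 in low-Pi between the strains, followed by NCU05640 and NCU01971. The nearest to *mus-21* were NCU00083, *eat-6* (NCU01963) and NCU01417, at 0.208 to 0.236. The nearest to *prd-4* were NCU09537, NCU02386 and *cpc-3* (NCU01187), the GCN2-type kinase of cross-pathway control, at 0.125 to 0.131. *cpc-3* had log2 fold changes of −0.62 in high-Pi and −0.01 in low-Pi. Those of *mus-59* were NCU05296, NCU01085 and NCU02286, at 0.105 to 0.119, and those of *mus-58* were *tca-3* (NCU02366), NCU00793 and NCU05066, at 0.260 to 0.281. Without both wild-type libraries of replicate I, 1 of the 3 nearest genes was shared for *mus-21*, *prd-4* and *mus-59*, and 0 for *mus-9* and *mus-58*. With a prior count of 0.5 on the log scale, 1 of the 3 was shared for *mus-58* and all 3 for each of the other kinases.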

How the data were processed

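RNA-Seq was done by the authors on 12 libraries with 100 bp paired-end reads. Reads were trimmed at a Phred score of 20 and mapped with Bowtie2 (2.1.0 in the submitters' processing notes) to the NC12 genome. The authors deposited raw read counts per gene, 1 column per library, and the counting tool and its use of strand are not given in the sources used here. Deposited tables of the authors' own DESeq comparisons (group means, fold changes and p-values) were not used. Columns were matched to libraries by table and column name.

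Counts were tested with edgeR 4.0.16 (R 4.3.3): filterByExpr (minimum count 10), TMM factors, 1 quasi-likelihood fit of the 4 groups with robust estimation, and Benjamini-Hochberg adjustment over 7746 genes. Levels are CPM on the TMM scale, and log2 CPM used a prior count of 2. The scripts were tested on simulated data. The precision is set by 17574263 to 56152963 counts per library, and p-values rest on the spread of 3 biological replicates per group. A count of 0 would allow up to 3 counts, 0.0535 to 0.182 CPM. Positions and symbols came from the RefSeq table of NC12, which matched 9729 of 9730 IDs.

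Alternatives were DESeq2 1.42.0, RLE factors, fits restricted to a comparison's own libraries, no filter, a minimum of 10 counts throughout, a replicate block, no robust estimation, and leaving out single libraries, both wild-type libraries of replicate I, or all 4 libraries numbered I. For levels per kb, RLE factors were tried, and for nearest genes a prior count of 0.5. The labels give no batch. Same-numbered wild-type libraries of the media deviated together from their group means (correlations 0.357 for I, 0.210 for II and 0.337 for III). Libraries of different numbers were not compared, and replicate I stood apart in both media. These correlations therefore cannot show that the numbers pair the libraries. The correlations were 0.290, 0.0945 and 0.133 between the media of the *mus-52* libraries, and −0.134 to −0.0172 between the strains, which were not taken as paired. The replicate block gave each number an effect shared by the strains, so it could not fit a pairing within the wild type alone.

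Named genes were the 5 kinases, *mus-52*, *mus-23* and up to 4 other *mus* genes with the smallest p in a comparison, the clock and checkpoint partners, and the 3 nearest genes of each kinase. The kinases and the lists were chosen with earlier results of these data known.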

Additional observations from a re-analysis of the deposited data

Results flagged for a closer look

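The response of *prd-4* to Pi differed between the strains by a test of the difference itself. It had a log2 fold change between high-Pi and low-Pi of −0.64 in the libraries labelled *mus-52* and 0.30 in the wild type, and the difference was −0.94 (standard error 0.249, adjusted p = 0.0495, edgeR), where 5.94% of all genes passed. The call was lost in 10 of the 12 fits that left out a library (adjusted p = 0.0705 to 0.192, edgeR), with the replicate number as a block (adjusted p = 0.0917, edgeR), and with RLE factors, no filter, at least 10 counts throughout or no robust estimation (adjusted p = 0.0505 to 0.0715, edgeR). *prd-4* was lower in high-Pi in each of the 3 *mus-52* libraries than in each of those in low-Pi, while in the wild type the media overlapped, and it was higher in high-Pi in 3 of 3 pairs of the same replicate number. The wild-type log2 fold change was 0.06 without both wild-type libraries of replicate I (adjusted p = 0.79, edgeR).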

How the results depend on the processing

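Of the 392 values of single kinases under the alternatives, 320 kept their direction and their side of the threshold, 27 lost it, 23 gained it and 22 changed sign, all 22 in differences that had not passed. Between the strains in high-Pi, 3 kinases passed, 4 in each of the fits without replicate I (*mus-21* added, adjusted p = 0.00105 and 0.00160, edgeR), and 1 to 3 with a library left out. Of all genes, 3780 of 7746 passed there, against 5515 of 7804 and 5394 of 7740 without replicate I, and 2855 to 4499 with a library left out. In low-Pi 1 passed (*mus-21*), against 3 with DESeq2 (*mus-9* and *mus-58* added), 2 with RLE factors, 0 with only the 6 libraries, 2 with the replicate block (*mus-9* added, 1.00, adjusted p = 0.0319, edgeR), 3 without both wild-type libraries of replicate I, 3 without replicate number I in any group, and 0 to 3 with a library left out. Both thresholds were passed by 1, 1, 2 and 3 kinases with DESeq2, RLE factors and the fits without replicate I, and by 0 to 2 with a library left out. In the same fits 1159 of 9131, 1086 of 7746, 1846 of 7804 and 1882 of 7740 genes passed both. With a library left out, 671 to 1801 genes did. The adjusted p threshold alone was passed by 3589, 3095, 5622 and 5494 genes in those fits. It was passed by 2421 of 7531 with only the 6 libraries and 3107 of 7746 with the block. The low-Pi sign changed for *prd-4* (−0.0415 and −0.0531 without replicate I, −0.0464 to 0.309 with a library left out) and *mus-59* (0.0054 without a filter, −0.171 to 0.0310 with a library left out). With Pi in the wild type, 1 kinase passed (*mus-59*) with DESeq2 and in each of the fits without replicate I, and the sign changed for *mus-9* (0.140 and 0.152 without replicate I, −0.457 to 0.431 with a library left out) and *mus-21* (−0.262 to 0.799). With Pi in the *mus-52* libraries, 1 passed (*prd-4*) with DESeq2 and in each fit without replicate I, and 2 with only the 6 libraries, while *mus-9* (−0.0998 to 0.0124) and *mus-58* (−0.127 to 0.741) changed sign. For the interaction, 1 passed, against 0 with RLE factors, no filter, at least 10 counts throughout, no robust estimation and the replicate block, 3 without both wild-type libraries of replicate I, and 0 to 1 with a library left out, and *mus-9* changed sign (−0.212 and −0.221 without replicate I, −0.442 to 0.369). The block, whose effects were shared by the strains though these were not taken as paired, changed no other call. The cause of these changes was not tested.

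Over all genes, 2975 passed the adjusted p threshold in low-Pi between the strains, 5622 without both wild-type libraries of replicate I, and 1488 to 4681 without single libraries. For Pi, 37 passed in the wild type against 281 with DESeq2, 0 with only the 6 libraries and 1255 without replicate I, and 365 in the *mus-52* libraries against 690, 2411 and 2589. For the interaction 460 passed, against 837 with DESeq2 and 1991 without replicate I. Among the kinases and the listed genes, *mus-58* and *ck-1a* had the fewest counts, 126 and 116 in all, and the cause of this was not tested.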
